A study of Homo sapiens with 12 samples.

Results

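This section describes 34 genes of homologous recombination and of the Fanconi anemia pathway in the HLE-B3 cells of this study. They were taken as the rows whose gene name is on a fixed list, and each name was found once among the 58735 genes of the count and FPKM tables (FPKM, fragments scaled to transcript length and to library size). HLE-B3 is an established human line of lens epithelium. Total RNA was sequenced from WT cells and from Atg7KO cells, in which ATG7, a gene that autophagy needs, had been targeted with CRISPR/Cas9 in the same line. Cells of each genotype were either untreated, with the time label 0 h, or had received 200 μM H2O2 for 12 h, and each of the 4 groups held 3 libraries that the study calls biological replicates. Untreated samples have the 0 h label only, so the effect of H2O2 and that of 12 h in culture cannot be told apart. The study picked individual knockout clones, and the labels do not name the Atg7KO clone or clones that were sequenced. Loss of ATG7 and other differences between a clone and the WT cells therefore cannot be told apart.

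Homologous recombination copies a broken DNA end from the sister chromatid. The end is sensed and trimmed to a single strand, BRCA1, PALB2 and BRCA2 then help to build a protein filament on it, and paralog proteins such as XRCC2 and XRCC3 and the RAD54 proteins help the filament to find and invade its template. The Fanconi proteins open this route at DNA crosslinks: a core complex carrying the FANCL ubiquitin ligase modifies the FANCD2 and FANCI pair. ATM and ATR, with their partner kinases CHEK2 and CHEK1, signal the damage and hold the cell cycle. Many of these genes are known to be transcribed mostly in S and G2 phase and to decline when p53 and p21 (CDKN1A) stop the cycle. Lens epithelial cells are long lived and exposed to light and oxidants, and H2O2 is known to break DNA.

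The libraries held between 15602183 and 17659496 reads on genes. Untreated Atg7KO replicate 1 stood apart from the others: its mean correlation with its own group over log2 counts was 0.974, while the libraries of the other groups had 0.991 to 0.992. In that library genes with over 5000 exonic bases lay 0.18 below (a median log2 deviation of -0.18) and genes under 2000 bases lay 0.24 above their mean over the 12 libraries. The same 2 medians were -0.06 to -0.07 and 0.13 to 0.15 in the H2O2-treated WT libraries, so length moved with that group too. This touches the genes described here, 22 of which have over 5000 exonic bases, with a median length of 6357 and a range of 2412 to 23972. Counts over the 34 genes that use the untreated Atg7KO group are therefore also given without replicate 1. Of the genes that passed with all libraries, 10 of 10 in the Atg7KO response, 3 of 3 between untreated cells and 5 of 5 in the difference of the responses also passed without it, in the same direction. ATG7 mRNA was not lower in the libraries labelled Atg7KO, at 3.55 ± 0.205 FPKM (SD, n = 3) against 2.55 ± 0.313 in untreated WT cells, so these counts do not check the genotype label. Of the 7 lens epithelium markers, PAX6 was at 1.27 ± 0.0741 and SIX3 at 3.06 ± 0.131 FPKM in untreated WT cells, while FOXE3, CRYAA, MAF and PROX1 had 10 reads or fewer in every library and CRYAB was at 0.172 ± 0.0345 FPKM. Of the 4 mesenchymal genes on the list, COL1A1 and VIM were at 626 ± 17.2 and 322 ± 11.1 FPKM in untreated WT cells. The sum over all 4 was 948, 955 and 943 FPKM in those libraries, so COL3A1 and ACTA2 added little to it. The 5 lens fibre markers summed to 2.38, 2.60 and 2.39 FPKM in the same libraries. The leukocyte markers PTPRC and CD68 summed to at most 0.125 FPKM in any library.

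**Figure D1:**
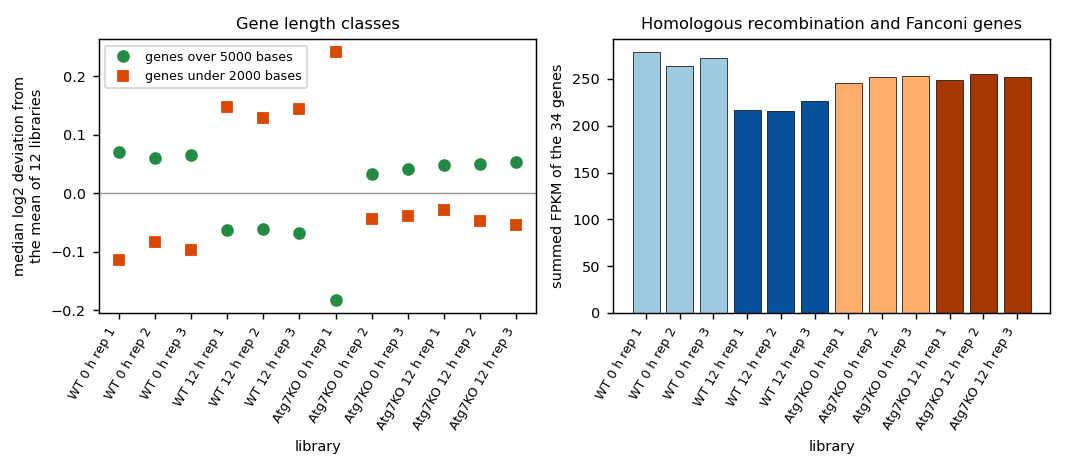
Left, for each of the 12 libraries (x axis), the median log2 deviation from the mean of all libraries for genes over 5000 bases (circles) and under 2000 bases (squares). Untreated Atg7KO replicate 1 lies farthest out, at -0.18 and 0.24. Right, the summed FPKM of the 34 genes in each library (bars), which was lowest in the H2O2-treated WT cells.

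All 34 genes had enough reads to be tested in every comparison. In untreated WT cells 33 of them had a mean above 1 FPKM and 10 had a mean above 10 FPKM. RBBP8, which with the MRN complex starts the trimming of broken ends, was the most abundant per length at 25.9 ± 1.34 FPKM (SD, n = 3). It was followed by FANCI with 20.8 ± 1.23 FPKM and FANCG with 18.6 ± 1.12 FPKM, neighbours in this order whose SDs overlap. RAD50, the ATPase of MRN, was lowest with 0.714 ± 0.174 FPKM, far under its partners NBN at 16.2 ± 0.923 and MRE11 at 9.51 ± 0.0766 FPKM. In GENCODE 29, whose gene coordinates equal those of the deposited table for all 58735 genes, 79.7% of the exonic bases of RAD50 also belong to AC116366.3, a gene model on the same strand that itself was given 0 to 7 reads. How the counting treated reads on shared bases is not given in the sources used here, so the low values of RAD50 are uncertain as levels. RAD54B shares 59.1% of its bases with FSBP on the same strand (1 to 9 reads), and XRCC3 shares 76.7% with KLC1 on the opposite strand (275 to 465 reads). The strand setting is not given either, so their values are uncertain in the same way. No other gene of the 34 shares over 50% of its exonic bases with other genes.

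The summed level of the 34 genes was 264 to 278 FPKM in untreated WT cells and 216 to 227 FPKM after H2O2. In Atg7KO cells it was 246 to 253 FPKM untreated and 248 to 256 FPKM after H2O2. The WT groups therefore did not overlap in this sum, and the Atg7KO groups did. The sum is weighted to abundant genes. RBBP8 alone had 28.9 to 34 FPKM in untreated and 50.5 to 54.1 FPKM in treated Atg7KO libraries. In Atg7KO cells 22 of the 34 genes had a log2 fold change below 0 and 12 had one above 0. The similar sums therefore do not show that the single genes stayed level.

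**Figure D2:**
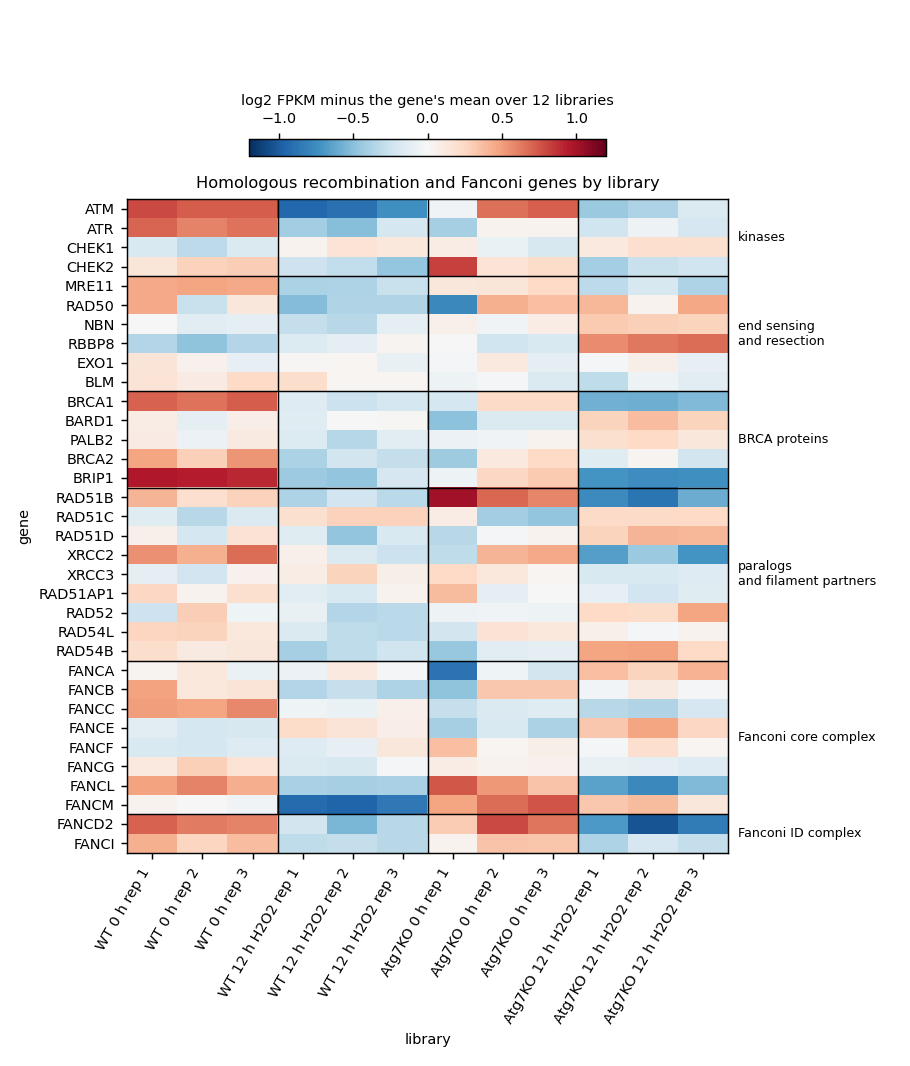
Each row is 1 of the 34 genes, grouped by role, and each column 1 of the 12 libraries; the colour is the gene's log2 FPKM minus its mean over all libraries, from -1.2 (blue) to 1.2 (red). Most rows are red in the untreated WT columns and blue in the H2O2-treated WT columns, with CHEK1, RBBP8, RAD51C and FANCE in the opposite order.

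The first comparison asked how WT cells changed these genes between 0 h and 12 h of H2O2. Of the 34 genes, 21 fell and 4 rose at an adjusted p under 0.01, and 9 did not pass. Genes of every role fell, led by the kinases ATM and ATR, the helicase BRIP1 and the Fanconi target FANCD2. CHEK1, RBBP8, RAD51C and FANCE rose, with log2 fold changes between 0.31 and 0.46. Over all 15913 genes tested 30.1% fell and 30.9% rose, so the share of the 34 genes that fell, 61.8%, was above that background and the share that rose, 11.8%, was below it. The median log2 fold change of the 34 genes was -0.48, against -0.01 over all genes tested. By the thresholds of the study (adjusted p under 0.01, log2 fold change beyond 1 in either direction and mean FPKM above 1 in at least 1 group) 4 of the genes fell, with 5.24% of all genes as background, and 0 rose by edgeR and by DESeq2, with 7.30% as background. Without H2O2-treated WT replicate 2 the number that fell by these thresholds was 2, since ATR (-0.97) and FANCD2 (-0.93) came out inside the fold change threshold, as FANCD2 (-0.99) also did without untreated WT replicate 1.

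Gene length moved with this comparison. Over all genes tested, those over 5000 bases had a median log2 fold change of -0.14 and those under 2000 bases one of 0.23. The 22 longer genes among the 34 had a median of -0.55, with 13 that fell and 3 that rose, and the 12 of 5000 bases or less had a median of -0.30, with 8 that fell and 1 that rose. After an offset for gene length in each library, 19 fell and 5 rose, with backgrounds of 27.7% and 32.0% in that fit and a median of -0.37 against 0.02 over all genes. The sign turned for 3 genes under this offset, none of which had passed before it. BLM (0.02) and BARD1 (0.01) did not pass after it either. FANCA, with -0.03 (adjusted p = 0.737) before it, had 0.21 (adjusted p = 0.00480) after it.

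The promoters of the 4 genes that fell past the thresholds of the study and of the 4 that rose at an adjusted p under 0.01 are shown here. These genes were chosen by their change in WT cells, and those that fell and those that rose moved in opposite directions. Each line gives the 150 bases before the RefSeq transcription start on GRCh38.p14, read 5′ to 3′ on the strand of the gene. Capitals mark a match on either strand to the CCAAT box (CCAAT, or ATTGG on the other strand), to the cell cycle homology region (TTTGAA or TTCGAA) or to the E2F motif (TTTNGCGC); no match of the last was in these windows.
ATM, chr11:108222917-108223066, plus strand: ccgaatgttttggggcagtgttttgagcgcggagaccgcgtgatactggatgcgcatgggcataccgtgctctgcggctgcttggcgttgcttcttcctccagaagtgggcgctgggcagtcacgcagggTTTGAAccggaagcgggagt
ATR, chr3:142578734-142578883, minus strand: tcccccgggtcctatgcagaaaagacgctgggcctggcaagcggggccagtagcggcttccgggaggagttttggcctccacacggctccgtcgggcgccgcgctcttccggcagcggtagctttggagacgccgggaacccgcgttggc
BRIP1, chr17:61863529-61863678, minus strand: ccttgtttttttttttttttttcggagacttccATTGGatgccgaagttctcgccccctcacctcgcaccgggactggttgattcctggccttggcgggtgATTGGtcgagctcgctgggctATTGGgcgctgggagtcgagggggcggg
FANCD2, chr3:10026287-10026436, plus strand: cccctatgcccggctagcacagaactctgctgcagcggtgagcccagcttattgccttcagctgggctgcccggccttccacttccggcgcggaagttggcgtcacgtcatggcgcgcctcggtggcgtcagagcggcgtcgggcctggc
CHEK1, chr11:125626074-125626223, plus strand: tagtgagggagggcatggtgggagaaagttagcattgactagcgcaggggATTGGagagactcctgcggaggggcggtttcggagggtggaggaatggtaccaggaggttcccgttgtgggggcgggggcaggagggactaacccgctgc
RBBP8, chr18:22933178-22933327, plus strand: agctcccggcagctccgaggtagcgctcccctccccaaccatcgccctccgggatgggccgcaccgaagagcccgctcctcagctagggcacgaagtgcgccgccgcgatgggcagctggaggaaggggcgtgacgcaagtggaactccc
RAD51C, chr17:58692423-58692572, plus strand: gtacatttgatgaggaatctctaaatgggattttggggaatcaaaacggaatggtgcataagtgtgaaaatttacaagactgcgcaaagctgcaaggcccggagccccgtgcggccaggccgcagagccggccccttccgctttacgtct
FANCE, chr6:35452188-35452337, plus strand: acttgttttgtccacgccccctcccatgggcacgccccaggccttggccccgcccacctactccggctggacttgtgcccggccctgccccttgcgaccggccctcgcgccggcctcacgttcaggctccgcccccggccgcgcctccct
The start used for RBBP8 lies 135067 bases inside the 5′ end of the gene in the deposited annotation, that of CHEK1 1088 bases and that of ATM 583 bases. The others lie at most 93 bases from it.

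A RefSeq promoter was found for 31 of the 34 genes; NBN, RAD54B and FANCI had no entry. In windows from 250 bases before to 50 after the start, the CCAAT box was in 13 of the 31 promoters, and in 34.6% of all 35116 promoters of the table. The E2F motif was in 3 (CHEK2, EXO1 and FANCC) and in 1.79% of all. The cell cycle homology region was in 3 (ATM, BRIP1 and FANCC) and in 16.4% of all. Of the 19 genes with a promoter entry that fell there, 8 held CCAAT, 2 the E2F motif and 3 the cell cycle homology region. These are matches of letters and were not tested as binding sites.

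Among the kinases, ATM (ENSG00000149311, chromosome 11, 108222484 to 108369102, plus strand), which is activated at double-strand breaks, had 4.79, 4.58 and 4.58 FPKM in the untreated WT libraries and 1.44, 1.49 and 1.66 FPKM in the treated ones. All treated libraries lay below all untreated ones. The log2 fold change was -1.61 ± 0.06 (SE, adjusted p = 4.16e-28), the lowest of the 34 genes, and -1.19 (adjusted p = 1.83e-22) with the length offset; ATM is also the longest of them, with 23972 exonic bases. ATR (ENSG00000175054, chromosome 3, 142449235 to 142578826, minus strand), which responds to single-stranded DNA at stalled forks, went from 5.42, 5.04 and 5.24 FPKM to 2.5, 2.34 and 2.88 FPKM. The groups did not overlap, and the log2 fold change was -1.03 ± 0.07 (SE, adjusted p = 1.77e-18). The effector kinases differed in direction. CHEK2, the partner of ATM, fell from 4.52 ± 0.256 to 3.04 ± 0.241 FPKM, with a log2 fold change of -0.58 (adjusted p = 1.38e-06). CHEK1, the partner of ATR, rose from 7.08 ± 0.379 to 8.92 ± 0.401 FPKM, with a log2 fold change of 0.33 (adjusted p = 6.37e-06).

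Of the genes for end sensing and trimming, RBBP8 (ENSG00000101773, chromosome 18, 22798261 to 23026488, plus strand), also called CtIP, had 26.7, 24.4 and 26.7 FPKM in untreated and 30.3, 31.4 and 34.8 FPKM in treated WT libraries. The treated libraries were all higher, by a log2 fold change of 0.31 ± 0.05 (SE, adjusted p = 6.61e-07). The MRE11 nuclease fell from 9.51 ± 0.0766 to 5.46 ± 0.241 FPKM, a log2 fold change of -0.80 (adjusted p = 9.89e-17). Its partner NBN did not pass, with -0.16 (adjusted p = 0.0107). RAD50 had a log2 fold change of -0.55 (adjusted p = 0.00359) on 75 to 151 reads per WT library, a call lost in 5 of 8 other settings and in 2 of 6 fits with 1 library left out. With the length offset it was -0.32 (adjusted p = 0.091). EXO1, an exonuclease, and BLM, a helicase, which extend the trimming, did not pass either, with log2 fold changes of -0.06 and -0.09. Thus the 6 genes that act on DNA ends split into 1 that rose, 2 that fell and 3 that did not pass. Over all genes tested 30.9% rose and 30.1% fell, and 6 genes are too few to be set apart from that background.

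In the BRCA group 4 of 5 genes fell and 0 rose by edgeR, beside backgrounds of 30.1% and 30.9% over all genes. BRIP1 (ENSG00000136492, chromosome 17, 61681266 to 61863521, minus strand), a helicase that binds BRCA1, had 16.1, 15.9 and 15.5 FPKM before and 6.13, 5.94 and 7.19 FPKM after H2O2 in WT cells. The groups lay far apart, with a log2 fold change of -1.30 ± 0.06 (SE, adjusted p = 1.98e-24). BRCA1 (ENSG00000012048, chromosome 17, 43044295 to 43170245, minus strand) went from 14.9, 14.4 and 15.1 to 8.21, 7.63 and 7.89 FPKM, also without overlap. Its log2 fold change was -0.91 ± 0.05 (SE, adjusted p = 5.83e-21). BRCA2, which helps to build the filament, fell by 0.73 on the log2 scale (adjusted p = 3.57e-12). PALB2, which joins BRCA1 to BRCA2, had a smaller log2 fold change of -0.26 (adjusted p = 0.00766), and its call was lost in 6 of 8 other settings and without 4 of 6 libraries in turn. BARD1 (ENSG00000138376, chromosome 2, 214725646 to 214809711, minus strand), the partner of BRCA1 in its ubiquitin ligase, had 6.59, 5.73 and 6.58 FPKM before and 5.63, 6.24 and 6.26 FPKM after H2O2. These overlapped, and BARD1 did not pass, with -0.07 (adjusted p = 0.414).

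The paralogs and the other proteins of the filament step held 1 gene that rose, 5 that fell and 3 that did not pass. The backgrounds over all genes were 30.9% that rose and 30.1% that fell. RAD51C, a paralog shared by both paralog complexes, rose from 12.4 ± 0.824 to 17.1 ± 0.549 FPKM, the highest log2 fold change of the 34 genes at 0.46 ± 0.05 (SE, adjusted p = 2.27e-10). RAD51B (ENSG00000182185, chromosome 14, 67819779 to 68730218, plus strand), its partner, went the other way, from 1.57, 1.36 and 1.43 FPKM to 0.915, 1.01 and 0.949 FPKM, with a log2 fold change of -0.61 (adjusted p = 4.18e-05). XRCC2, another paralog, fell by 0.67 on the log2 scale (adjusted p = 1.17e-10). The DNA translocases RAD54L and RAD54B fell too, with log2 fold changes of -0.49 (adjusted p = 1.92e-07) and -0.47 (adjusted p = 0.00369). The call of RAD54B held in 6 of 8 other settings and in 4 of 6 fits with 1 library left out. RAD51AP1, which stimulates strand invasion, had -0.26 (adjusted p = 0.00171), a call lost in 4 of 8 other settings and without 3 of 6 libraries in turn. RAD51D, XRCC3 and RAD52 did not pass, with log2 fold changes of -0.28, 0.23 and -0.27.

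Of the 8 genes of the Fanconi core complex, 5 fell, 1 rose and 2 did not pass, beside backgrounds of 30.1% and 30.9% over all genes. FANCM (ENSG00000187790, chromosome 14, 45135940 to 45200890, plus strand), the translocase that anchors the complex on DNA, had 2.62, 2.56 and 2.47 FPKM before and 1.34, 1.3 and 1.41 FPKM after H2O2. The groups did not overlap, and the log2 fold change was -0.92 ± 0.10 (SE, adjusted p = 2.24e-11). FANCL (ENSG00000115392, chromosome 2, 58159243 to 58241372, minus strand), the ubiquitin ligase, went from 9.4, 10.2 and 9.13 FPKM to 5.13, 5.12 and 5.16 FPKM, a log2 fold change of -0.90 (adjusted p = 1.68e-11). FANCC (ENSG00000158169, chromosome 9, 95099054 to 95426796, minus strand) fell from 4.91, 4.82 and 5.18 to 3.33, 3.29 and 3.61 FPKM, a log2 fold change of -0.55 (adjusted p = 4.51e-11). These 3 genes were lower in every treated library. FANCB and FANCG, subunits that stabilise the complex, fell with log2 fold changes of -0.60 and -0.32. FANCE, the subunit that binds FANCD2, rose from 7.65 ± 0.209 to 9.63 ± 0.46 FPKM, a log2 fold change of 0.33 (adjusted p = 0.000583); with the length offset it did not pass, at 0.21 (adjusted p = 0.0238). Both proteins that the complex modifies fell. FANCD2 (ENSG00000144554, chromosome 3, 10026414 to 10101930, plus strand) had 5.37, 5.04 and 4.97 FPKM untreated and 2.82, 2.24 and 2.6 FPKM treated, with a log2 fold change of -1.01 ± 0.08 (SE, adjusted p = 6.22e-16). FANCI fell from 20.8 ± 1.23 to 13.2 ± 0.207 FPKM, a log2 fold change of -0.67 (adjusted p = 1.00e-16).

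The same question was put to Atg7KO cells. There 7 of the 34 genes fell (MRE11, BRCA1, BRIP1, RAD51B, FANCL, FANCD2 and FANCI) and 3 rose (RBBP8, BARD1 and FANCE), while 24 did not pass. Over all 15475 genes tested 12.4% fell and 13.6% rose, against 20.6% and 8.82% of the 34 genes. Their median log2 fold change was -0.09, and that of all genes -0.03. By the thresholds of the study RAD51B, FANCL and FANCD2 fell, with a background of 5.11%. By these thresholds 0 genes rose by edgeR and by DESeq2, with a background of 6.09%. An unadjusted p under 0.05 was found for 21 of the 34 genes, a cut at which no share over all genes was computed. The biological coefficient of variation of this comparison was 0.161, against 0.0470 in WT cells. Without untreated Atg7KO replicate 1, 15 genes fell and 9 rose, with backgrounds of 28.6% and 29.8%, and by the thresholds of the study 6 fell and 0 rose by edgeR, with backgrounds of 5.51% and 6.25%. Leaving out any of the other 5 libraries gave 1 to 2 genes that rose and 3 to 4 that fell.

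FANCD2 had 4.07, 5.69 and 5.11 FPKM in the untreated Atg7KO libraries and 2.04, 1.6 and 1.83 FPKM after H2O2. All treated libraries were lower, with a log2 fold change of -1.45 ± 0.16 (SE, adjusted p = 0.000594), and of -1.58 (adjusted p = 1.53e-53) without replicate 1. FANCL went from 11.3, 9.7 and 8.53 to 4.33, 3.94 and 4.66 FPKM. Its groups did not overlap either, and the log2 fold change was -1.19 ± 0.14 (SE, adjusted p = 0.000671). RAD51B had 2.38, 1.91 and 1.78 FPKM before and 0.695, 0.643 and 0.786 FPKM after H2O2, a log2 fold change of -1.51 ± 0.16 (SE, adjusted p = 0.000441), and of -1.39 (adjusted p = 2.34e-19) without replicate 1. RAD51B was the lowest of the 34 genes with all libraries, and FANCD2 without replicate 1. Untreated replicate 1 was the highest of the 3 libraries for RAD51B and FANCL and the lowest for FANCD2. BRIP1 fell from 7.91, 9.82 and 10.3 to 5.04, 4.92 and 4.98 FPKM, a log2 fold change of -0.92 (adjusted p = 0.00128). BRCA1 fell from 7.89, 10.7 and 10.7 to 6.14, 6.1 and 6.32 FPKM, a log2 fold change of -0.66 (adjusted p = 0.00797). In both genes replicate 1 was again the lowest untreated library, and all 3 untreated libraries lay above the treated ones. MRE11 and FANCI also fell, by log2 fold changes of -0.47 (adjusted p = 0.00621) and -0.53 (adjusted p = 0.00932). With 1 library left out, the calls of MRE11, BRCA1 and FANCI each held in 1 of 6 fits and that of BRIP1 in 3 of 6. In other settings the call of MRE11 held in 6 of 8, that of BRCA1 in 5 of 8 and that of FANCI in 4 of 8.

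RBBP8 rose most in Atg7KO cells, from 34, 28.9 and 30.0 FPKM to 50.5, 52.9 and 54.1 FPKM. The treated libraries lay well above the untreated ones, and the log2 fold change was 0.76 ± 0.10 (SE, adjusted p = 0.000925). BARD1 had 4.43, 5.51 and 5.53 FPKM before and 7.5, 8.03 and 7.5 FPKM after H2O2, a log2 fold change of 0.57 (adjusted p = 0.00789). FANCE rose from 6.96 ± 0.585 to 11.1 ± 0.907 FPKM, a log2 fold change of 0.67 (adjusted p = 0.00329). With 1 library left out, the call of RBBP8 held in 6 of 6 fits, that of BARD1 in 1 of 6 and that of FANCE in 2 of 6.

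The main kinases did not pass in these cells. ATM had 2.68, 4.38 and 4.56 FPKM in untreated and 2.03, 2.14 and 2.45 FPKM in treated Atg7KO libraries, with replicate 1 much lower than the other untreated libraries. Its log2 fold change was -0.82 ± 0.21 (SE, adjusted p = 0.0185), and it passed without replicate 1, at -1.03 (adjusted p = 4.35e-52). ATR had 2.53, 3.44 and 3.43 FPKM before and 2.82, 3.21 and 2.91 FPKM after H2O2, groups that overlapped. Its log2 fold change was -0.08 (adjusted p = 0.674), and -0.22 (adjusted p = 0.00327) without replicate 1. RAD54B (ENSG00000197275, chromosome 8, 94371960 to 94475109, minus strand) had 0.97, 1.21 and 1.23 FPKM before and 1.85, 1.86 and 1.57 FPKM after H2O2, higher in every treated library, on 85 to 168 reads per library. Its log2 fold change of 0.62 (adjusted p = 0.0164) did not pass, and that without replicate 1, 0.51 (adjusted p = 0.00143), did. CHEK2, XRCC2 and RAD51C likewise did not pass with all libraries and passed without replicate 1, at -0.51 (adjusted p = 2.57e-06), -1.05 (adjusted p = 1.95e-36) and 0.67 (adjusted p = 1.32e-31).

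**Figure D3:**
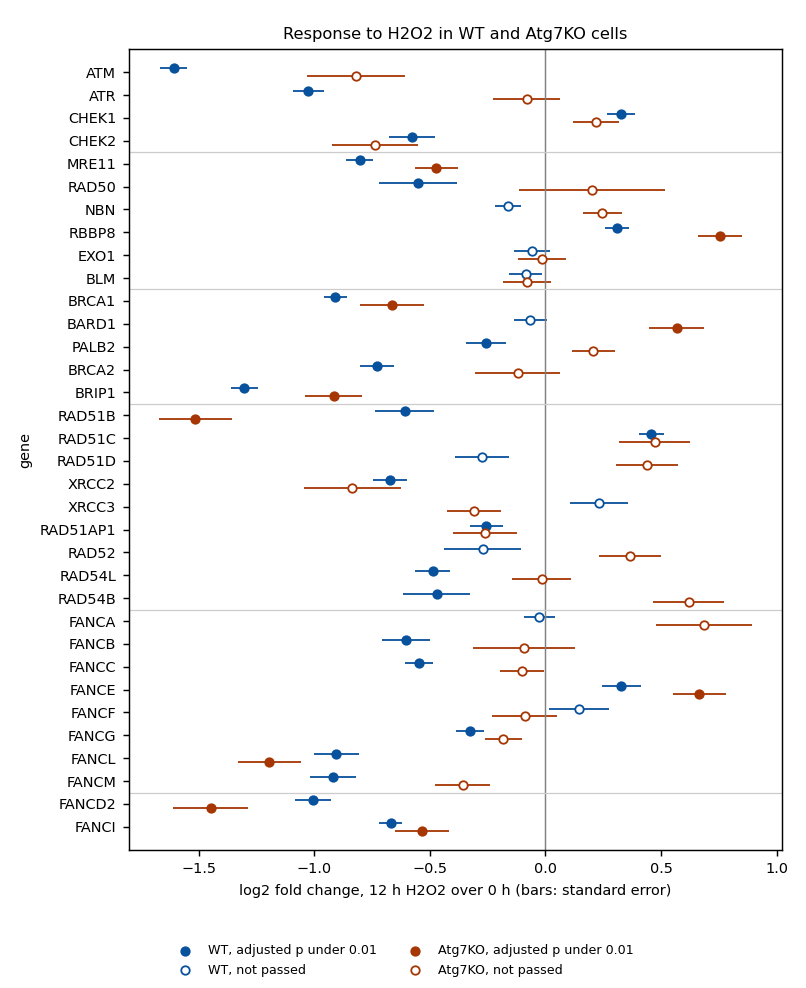
Log2 fold change of each of the 34 genes (rows, grouped by role) between 12 h of H2O2 and 0 h, in WT cells (blue) and Atg7KO cells (brown); bars are standard errors, and filled points passed an adjusted p of 0.01. The WT points extend from -1.61 for ATM to 0.46 for RAD51C, and the Atg7KO bars are longer.

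Whether the response itself differed between the genotypes was tested as an interaction over all 12 libraries, where a positive value means that the change in Atg7KO cells lay above that in WT cells. Of the 34 genes, 4 passed with a positive difference (ATR, BARD1, RAD54B and FANCC) and 1 with a negative one (RAD51B). Over all 16856 genes tested 7.02% passed with a positive and 7.01% with a negative difference, against 11.8% and 2.94% of the 34 genes. Their median difference was 0.36, and that of all genes -0.03. This comparison rests on the same libraries as the responses above.

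The ATR fold change was -1.03 in WT cells and -0.08 in Atg7KO cells, and the difference was 0.95 ± 0.17 (SE, adjusted p = 0.00169). For RAD54B the responses of -0.47 and 0.62 differed by 1.09 ± 0.18 (SE, adjusted p = 0.00125). Treated WT libraries of RAD54B had 1.01, 1.08 and 1.13 FPKM, against 1.54, 1.43 and 1.46 FPKM untreated, so that the direction was down in WT and up in Atg7KO libraries. The rise of RAD54B in Atg7KO cells did not itself pass with all libraries, and its fall in WT cells was lost in some settings. In the interaction ATR and RAD54B passed under all 7 other settings and without each of the 12 libraries in turn. BARD1 had a difference of 0.63 (adjusted p = 0.00572), which did not pass without 8 of the 12 libraries. RAD51B had a difference of -0.90 (adjusted p = 0.00431), having gone down further in Atg7KO cells, and did not pass without 7 of the 12 libraries. FANCC had 2.85, 3.06 and 3.13 FPKM before and 2.75, 2.7 and 3.01 FPKM after H2O2 in Atg7KO cells, which overlap. Its difference of 0.45 (adjusted p = 0.00924) did not pass in 4 of 7 other settings or without 10 of the 12 libraries.

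The number of genes that passed depended on the library that stood apart and on gene length. Without untreated Atg7KO replicate 1, 15 of the 34 genes passed with a positive and 3 with a negative difference, with backgrounds of 17.8% and 16.3%. ATM (0.59), RBBP8 (0.52), FANCM (0.49) and MRE11 (0.32) were among the 15, and RAD51B (-0.77), FANCD2 (-0.56) and XRCC2 (-0.36) were the 3. Leaving out any other library gave 2 to 6 positive and 0 to 1 negative. Genes over 5000 bases had a median difference of 0.18 and genes under 2000 bases one of -0.39 over all genes tested. The 22 longer genes of the 34 had a median of 0.43 and held all 5 that passed, while the 12 shorter had a median of 0.09. With the length offset 3 genes passed in each direction, 8.82% of the 34, with backgrounds of 6.44% positive and 8.07% negative, and the median was 0.20 against -0.05 over all genes.

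The genotypes were then compared directly, first without H2O2. In untreated cells FANCM was higher in Atg7KO cells, and BRIP1 and FANCC were lower, while 31 genes did not pass. The background was 4.42% higher and 3.28% lower among 15357 genes, and the 34 genes had 2.94% and 5.88%. By the thresholds of the study edgeR and DESeq2 each called 0 of the 34 genes in either direction, with backgrounds of 2.27% and 1.23% by edgeR. An unadjusted p under 0.05 was found for 12 of them, a cut at which no share over all genes was computed. Untreated Atg7KO libraries had 3.52, 4.05 and 4.28 FPKM of FANCM against 2.62, 2.56 and 2.47 in WT libraries. The groups did not overlap, and the log2 fold change was 0.63 ± 0.11 (SE, adjusted p = 0.00885). FANCC, given above, had a log2 fold change of -0.72 ± 0.09 (SE, adjusted p = 0.00253). BRIP1 had a log2 fold change of -0.76 ± 0.12 (SE, adjusted p = 0.00653), from 15.8 ± 0.287 FPKM in WT to 9.35 ± 1.27 FPKM in Atg7KO cells. ATR and BRCA1 lay in the same direction as BRIP1 and did not pass, at -0.74 (adjusted p = 0.0118) and -0.60 (adjusted p = 0.0243).

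Without replicate 1 of the untreated Atg7KO cells, 2 genes were higher (FANCM and RBBP8) and 8 were lower, with backgrounds of 18.2% and 17.9%; by the thresholds of the study there were 0 by edgeR, with backgrounds of 2.72% higher and 1.63% lower. The 8 were ATR, MRE11, BLM, BRCA1, BRCA2, BRIP1, RAD51C and FANCC, with log2 fold changes between -0.67 for FANCC and -0.22 for RAD51C. Leaving out any other of these 6 libraries gave 0 genes in either direction by edgeR.

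After H2O2 the same comparison had a biological coefficient of variation of 0.0416. Here 13 genes were higher and 7 lower in Atg7KO than in WT cells, and 14 did not pass. The background was 27.7% higher and 27.9% lower among 15909 genes, against 38.2% and 20.6% of the 34 genes, with a median of 0.07 against -0.00 over all genes. The genes that were higher were ATM, RAD50, NBN, RBBP8, BARD1, PALB2, RAD51D, RAD52, RAD54L, RAD54B, FANCA, FANCB and FANCM. Those that were lower were BLM, BRCA1, BRIP1, RAD51B, XRCC2, FANCC and FANCD2. With all 12 libraries in 1 fit 6 genes were higher and 0 lower by edgeR, with backgrounds of 13.97% and 14.96%. In that fit 21 had an unadjusted p under 0.05, again without a share over all genes at that cut. DESeq2 on the 6 libraries gave 12 and 5, with backgrounds of 25.0% and 25.1%. The length offset gave 12 higher and 8 lower, with backgrounds of 26.0% and 27.2%. Gene length moved with this comparison too. Over all genes tested, those over 5000 bases had a median of 0.11 and those under 2000 bases one of -0.18. The 22 longer genes of the 34 had a median of 0.11, and the 12 of 5000 bases or less one of 0.06. The call of BLM, with -0.26 (adjusted p = 0.00388), was lost in 4 of 8 other settings and without 3 of 6 libraries in turn.

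FANCM was the only 1 of the 34 genes past the thresholds of the study, with backgrounds of 3.03% higher and 4.43% lower. Treated Atg7KO libraries had 3.17, 3.31 and 2.8 FPKM and treated WT libraries 1.34, 1.3 and 1.41 FPKM, far apart, with a log2 fold change of 1.18 ± 0.09 (SE, adjusted p = 1.56e-12). Genes next to FANCM on chromosome 14 were also higher in Atg7KO cells. Of the 7 other genes tested within 2 Mb on either side, 7 had a log2 fold change above 0 in untreated cells, with a median of 0.57, and 6 of 7 after H2O2, with a median of 0.63. This window was chosen after the values were seen. In the same window around BRCA1 on chromosome 17, 61 of 107 genes were lower and 8 higher after H2O2, with a median of -0.38, close to the -0.36 ± 0.05 (SE, adjusted p = 3.46e-07) of BRCA1 itself. Around FANCC 3 of 25 genes lay above 0 in untreated cells, with a median of -0.50, around ATR 4 of 16 with a median of -0.46, and around BRIP1 9 of 35 with a median of -0.47. Other windows lay the opposite way from their gene. After H2O2, 21 of 46 genes around FANCA were lower, with a median of -0.33, and 17 of 29 around RAD51B were higher, with a median of 0.38. Of the 20 genes that passed after H2O2, the median of the window had the sign of the gene in 16 and the opposite sign in 4 (BLM, RAD51B, RAD51D and FANCA). How often this holds for genes in general was not computed. The part of these stretches in the values of the genes was not tested.

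At the DNA ends all members of MRN and RBBP8 were compared. RBBP8 had 52.5 ± 1.84 FPKM in treated Atg7KO against 32.2 ± 2.35 FPKM in treated WT cells, a log2 fold change of 0.70 ± 0.04 (SE, adjusted p = 1.46e-14). NBN was higher too, at 21 ± 0.322 against 14.6 ± 1.24 FPKM, a log2 fold change of 0.52 (adjusted p = 1.05e-10). MRE11 did not pass, with 0.04 (adjusted p = 0.625). RAD50 had 0.855, 0.667 and 0.897 FPKM in Atg7KO and 0.453, 0.505 and 0.506 FPKM in WT libraries, a log2 fold change of 0.72 (adjusted p = 0.000129) on 75 to 152 reads. Within the BRCA group the genes differed in direction. BARD1 was higher, with 0.34 (adjusted p = 2.39e-05), while BRCA1 was lower; PALB2 was higher, with 0.39 (adjusted p = 0.000106), while BRIP1 was lower, with -0.38 (adjusted p = 9.15e-06), and BRCA2 did not pass, with 0.18 (adjusted p = 0.0466).

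Among the genes of the filament step RAD54B was highest in Atg7KO relative to WT cells, at a log2 fold change of 0.71 (adjusted p = 3.32e-05), followed by RAD51D with 0.61 (adjusted p = 8.34e-06), RAD52 with 0.56 (adjusted p = 0.00151) and RAD54L with 0.29 (adjusted p = 0.00107). XRCC2 and RAD51B were lower, with -0.49 (adjusted p = 5.48e-06) and -0.44 (adjusted p = 0.00979), and the call of RAD51B held in 2 of 8 other settings and in 1 of 6 fits with 1 library left out. RAD51C did not pass, with -0.02 (adjusted p = 0.67). In the Fanconi core complex FANCA and FANCB were higher, with 0.34 (adjusted p = 1.11e-05) and 0.34 (adjusted p = 0.0034), and FANCC was lower, with -0.28 (adjusted p = 0.000353). The length offset gave 0.17 (adjusted p = 0.0114) for FANCA, which did not pass, and the call of FANCB was lost with DESeq2, with all 12 libraries and without 2 of 6 libraries in turn. FANCE, FANCF, FANCG and FANCL did not pass. FANCD2 was lower in Atg7KO cells, with 1.82 ± 0.222 against 2.56 ± 0.294 FPKM and a log2 fold change of -0.50 (adjusted p = 8.83e-05), and FANCI did not pass, with 0.02 (adjusted p = 0.735). Of the kinases ATM was higher, with 0.52 (adjusted p = 1.50e-07), and did not pass with the length offset, at 0.20 (adjusted p = 0.0139), or with all 12 libraries. ATR, CHEK1 and CHEK2 did not pass.

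**Figure D4:**
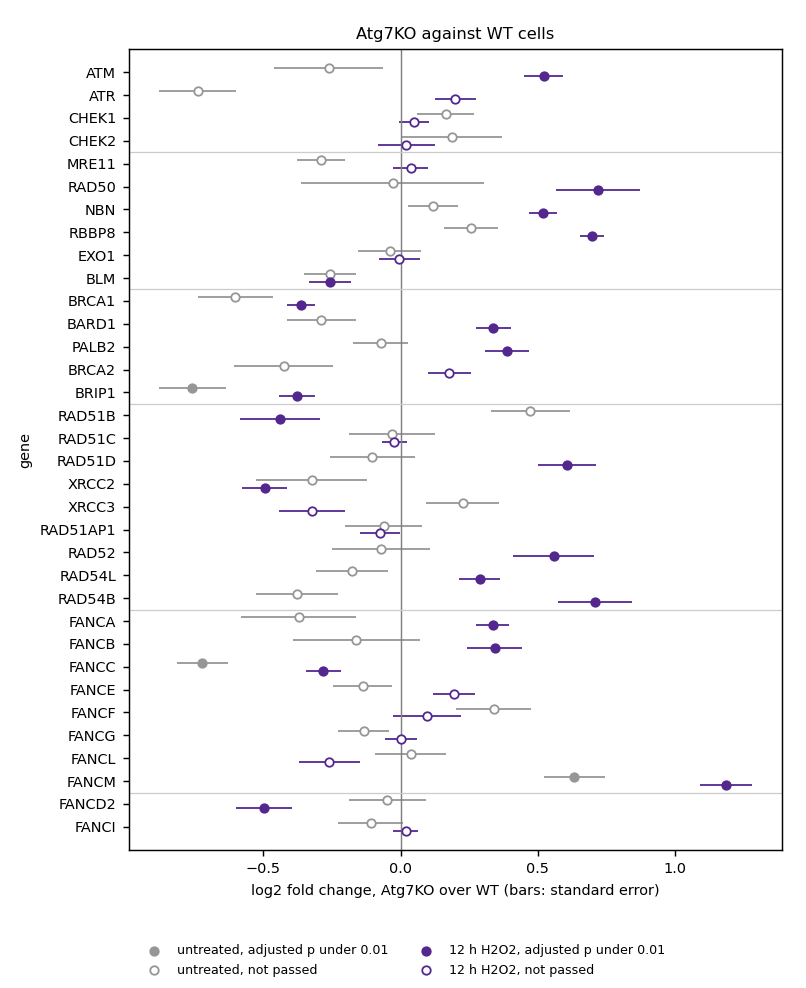
Log2 fold change of each of the 34 genes (rows, grouped by role) between Atg7KO and WT cells, untreated (grey) and after 12 h of H2O2 (purple); bars are standard errors, and filled points passed an adjusted p of 0.01. The grey points have longer bars, and 3 of them are filled, against 20 of the purple ones.

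**Figure D5:**
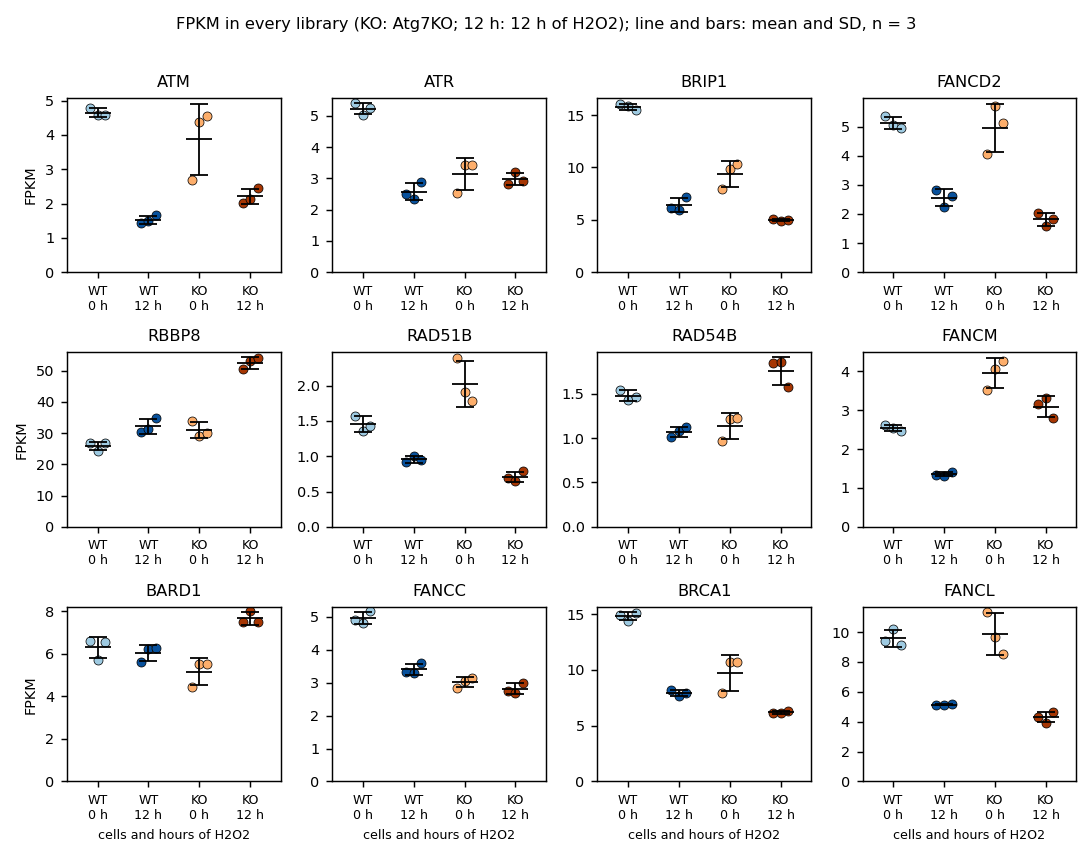
FPKM (y axis, from 0) of 12 genes in each library of the 4 groups (x axis); points are single libraries, and the line and bars are the mean and SD of 3. ATM, ATR, BRIP1, BRCA1 and FANCD2 drop between the WT groups, RBBP8 is highest in treated Atg7KO cells at 50.5 to 54.1 FPKM, and FANCM is above WT in both Atg7KO groups.

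Other genes of DNA repair and of the cell cycle were read from lists beside the 34 genes. Of 43 further recombination and Fanconi genes tested in WT cells 17 fell and 9 rose after H2O2, which is 39.5% and 20.9% beside the backgrounds of 30.1% and 30.9%, with a median log2 fold change of -0.15. GEN1, a resolvase of Holliday junctions, and PARPBP, an inhibitor of recombination, had the lowest values, -1.17 (adjusted p = 4.18e-19) and -1.09 (adjusted p = 1.82e-16). RNF168, a ubiquitin ligase that marks chromatin at breaks, and USP1, which removes ubiquitin from FANCD2, had the highest, 0.64 (adjusted p = 4.27e-13) and 0.59 (adjusted p = 5.20e-16). Of 15 end joining genes tested, 6 fell (40.0%) and 1 rose (6.67%). The DNA-dependent kinase PRKDC (-1.05 (adjusted p = 5.20e-27)) and TP53BP1 (-1.0, adjusted p = 5.93e-20), which shields ends from trimming, were lowest, and PAXX rose with 0.28 (adjusted p = 0.000184). In Atg7KO cells 7 of the 43 fell and 4 rose, 16.3% and 9.30% beside backgrounds of 12.4% and 13.6%. The lowest were BABAM2, a subunit of a BRCA1 complex, and PARPBP, at -1.56 (adjusted p = 0.000939) and -1.32 (adjusted p = 8.16e-05), and the highest TOP3A, a topoisomerase that works with BLM, and UIMC1, of the same BRCA1 complex, at 1.01 (adjusted p = 0.0028) and 0.55 (adjusted p = 0.00206). Of the 15 end joining genes 0 passed there by edgeR, and 6 had an unadjusted p under 0.05, without a share over all genes at that cut. The lists were read in Atg7KO cells with all libraries only. In untreated Atg7KO replicate 1 the 43 genes summed to 733 FPKM, against 603 and 594 FPKM in replicates 2 and 3. The listed end joining genes summed to 452 FPKM there, against 395 and 390 FPKM.

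The 24 S phase and proliferation genes did not move one way in WT cells, with 10 that rose, 7 that fell and a median of 0.09. These are 41.7% and 29.2%, beside backgrounds of 30.9% and 30.1%, so the share that fell was near its background. MKI67 and TOP2A, marks of dividing cells, fell by 1.69 and 1.68 on the log2 scale. PCNA, the replication clamp, and CCNE2, a cyclin of the G1 to S step, rose by 1.64 and 1.2. In Atg7KO cells 6 of the 24 genes rose and 5 fell, which is 25.0% and 20.8% beside backgrounds of 13.6% and 12.4%. TOP2A (-1.82) and CCNA2 (-1.71) were lowest and CCNE2 (1.33) and PCNA (1.30) highest. All 20 p53 target genes rose in both genotypes, beside backgrounds of 30.9% in WT and 13.6% in Atg7KO cells. Their medians were 2.66 in WT and 2.79 in Atg7KO cells. Their summed level went from 246 to 251 FPKM in untreated WT libraries to 2898 to 3397 FPKM in treated ones, and from 216 to 252 FPKM to 2768 to 2845 FPKM in Atg7KO libraries. BTG2 and CDKN1A, which restrain the cell cycle, were highest in WT cells at 6.05 and 4.96, and XPC and DDB2, which act in nucleotide excision repair, lowest at 0.48 and 0.88. In bulk RNA fewer cells that express a gene and less RNA per cell cannot be told apart, and the part of the cell cycle in the values of the 34 genes was not tested.

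Between the genotypes 0 of the 43 further recombination and Fanconi genes, 0 of 15 end joining genes and 0 of 24 S phase genes passed in untreated cells by edgeR. The backgrounds were 4.42% higher and 3.28% lower. An unadjusted p under 0.05 was found for 17, 2 and 5 of these genes, and the share over all genes at that cut was not computed. These lists, here and in the interaction below, were not read without untreated Atg7KO replicate 1. After H2O2, 15 of the 43 were higher and 11 lower in Atg7KO cells, with a median of -0.01; these are 34.9% and 25.6%, near the backgrounds of 27.7% and 27.9%. SLX4, a nuclease scaffold (1.05 (adjusted p = 4.73e-12)), and ABRAXAS1, a partner of BRCA1 (0.77 (adjusted p = 9.02e-05)), were highest. SWI5, which acts in strand exchange (-0.70 (adjusted p = 1.19e-08)), and MUS81, a nuclease that cuts branched DNA (-0.64 (adjusted p = 4.17e-08)), were lowest. Of the end joining genes 5 (33.3%) were higher and 4 (26.7%) lower, with PRKDC at 0.76 (adjusted p = 1.29e-18) and POLM, a polymerase, at 0.66 (adjusted p = 1.50e-09) highest and SHLD1, of the shieldin complex, at -1.08 (adjusted p = 0.00115) and POLQ, a polymerase, at -0.24 (adjusted p = 0.00539) lowest. Of the S phase genes 9 (37.5%) were higher and 10 (41.7%) lower, from -0.86 for E2F2 to 0.54 for CCNE1, and of the p53 targets 13 were higher and 3 lower. In the interaction, with backgrounds of 7.02% and 7.01%, 4 of the 43 genes passed with a positive difference, highest for SLX4 (1.70 (adjusted p = 0.00435)) and DNA2 (0.59 (adjusted p = 0.00815)), and 2 with a negative one, H2AFX (-0.74 (adjusted p = 0.00295)) and MUS81 (-0.69 (adjusted p = 0.00382)). PRKDC passed too, at 0.98 (adjusted p = 0.00645), as 1 of 15 end joining genes. Of the S phase genes MCM7, CCNA2 and MCM3 (12.5%) passed, with -0.67, -0.50 and -0.42. Of the p53 targets 7 (35.0%) passed with a positive and 2 (10.0%) with a negative difference.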

How the data were processed

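RNA-seq libraries of HLE-B3 cells, made with the NEBNext Ultra kit, were sequenced by the authors in 4 groups of 3. Per the submitters' processing notes, HISAT2 2.0.5, featureCounts 1.5.0-p3 and GRCh38 were used. The deposited counts are whole reads per gene, not normalized. The deposited FPKM values were scaled by the authors for gene length and library size and are printed as levels. The strand setting and the treatment of reads on overlapping genes are not given in the sources used here. Groups come from the sample labels.

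Counts were tested with edgeR 4.0.16 (R 4.3.3) by the quasi-likelihood F-test with TMM scaling, filterByExpr at a minimum count of 10 and a robust fit, on the 6 libraries of each comparison and on all 12 for the interaction. All adjusted p values are Benjamini-Hochberg values over all genes tested, called under 0.01. Standard errors were computed as the size of the log2 fold change over the root of F. No source says that replicates came from separate cultures beyond calling them biological, and p values measure the spread between these libraries. Libraries held 15602183 to 17659496 reads on genes, and precision is limited by 3 libraries per group.

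Other settings were DESeq2 1.42.0, RLE scaling, no filter, all 12 libraries, the replicate number as a block, limma 3.58.1 on log2(FPKM + 1) or log2(FPKM + 0.1), an offset for gene length (lowess, span 0.3), glmTreat and leaving out each library. The fits were tested on simulated data. The 34 genes and all lists were chosen with earlier results of these data known. All 34 genes were described by role. Values in every library were given for genes that passed the thresholds of the study or the interaction and for examples of each role, and of other lists the 2 highest and 2 lowest that passed. Promoters are from RefSeq on GRCh38.p14, and shared exons from GENCODE 29. 1 listed gene is not reported here.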

Additional observations from a re-analysis of the deposited data

Results flagged for a closer look

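The response to H2O2 differed between Atg7KO and WT cells in 5 of the 34 genes, by edgeR's interaction test on all 12 libraries. Of the 34 genes 11.8% passed with a positive and 2.94% with a negative difference, beside backgrounds of 7.02% and 7.01% over all genes. The count alone therefore does not set these genes apart. The difference of the log2 fold changes was 0.95 for ATR, 0.63 for BARD1, -0.90 for RAD51B, 1.09 for RAD54B and 0.45 for FANCC. In FANCC the difference fell to 0.01 in 1 of the other settings, while in the other 4 genes it kept its sign and was at least 0.49 in size in all settings run. ATR and RAD54B passed in all of them.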

How the results depend on the processing

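Of 270 counts of genes recomputed under other settings, 206 stayed within 1.5 times the reported count. Of 2550 log2 fold changes of single genes, 2301 stayed on the same side of the threshold, 158 no longer passed and 90 newly passed. The sign changed in 87, of which 86 passed neither before nor after the change; the other was FANCA in WT cells, which passed with 0.21 under the gene length offset. The same-numbered libraries did not deviate together (r from -0.07 to 0.10 over 18 pairs, 0 of them over 0.1), so the numbers do not pair the libraries. With the replicate block, 4 genes fell in Atg7KO cells and 0 passed in either direction between untreated Atg7KO and WT cells. In WT cells, limma on log2(FPKM + 1) and glmTreat each left 2 genes lower by the thresholds of the study, and leaving out 1 library 2 to 4. In Atg7KO cells the genes that rose were 5 with DESeq2, 6 with all 12 libraries and 5 with the length offset, and 1 to 9 with 1 library left out. In the same order of settings 14.7%, 17.6% and 14.7% of the 34 genes rose, with backgrounds of 18.7%, 19.6% and 17.5%. The 9, without untreated Atg7KO replicate 1, are 26.5%, with a background of 29.8%. The genes that fell in Atg7KO cells were 11 with all 12 libraries (32.4%, background 19.1%) and 3 to 15 with 1 library left out. The 15, without untreated Atg7KO replicate 1, are 44.1%, with a background of 28.6%. By the thresholds of the study 0 fell in these cells with glmTreat and 3 to 6 with 1 library left out. Between untreated cells limma at both pseudocounts gave 0 higher, DESeq2 4 lower, all 12 libraries 5 lower, and leaving out 1 library 0 to 2 higher and 0 to 8 lower. With DESeq2 and with all 12 libraries 11.8% and 14.7% of the 34 genes were lower, with backgrounds of 7.57% and 8.83%. Without untreated Atg7KO replicate 1 they were 5.88% higher and 23.5% lower, with backgrounds of 18.2% and 17.9%. After H2O2, all 12 libraries gave 6 higher and 0 lower, with backgrounds of 13.97% and 14.96%. There limma at both pseudocounts gave 3 lower, and limma on log2(FPKM + 1) and glmTreat gave 0 higher by the thresholds of the study. In the interaction DESeq2 gave 10 and no filter 8 positive, the length offset 3 negative, and leaving out 1 library 2 to 15 positive and 0 to 3 negative. The 10 with DESeq2 are 29.4%, with a background of 10.6%, and the 3 with the length offset 8.82%, with one of 8.07%. Without untreated Atg7KO replicate 1, 44.1% were positive and 8.82% negative, with backgrounds of 17.8% and 16.3%. Where that library was in the comparison, the highest counts with 1 library left out were without untreated Atg7KO replicate 1. The cause of these moves was not tested. No share over all genes is given for the other counts of this paragraph, which show only how calls moved between settings.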
